A study of Mus musculus with 4 samples.

Results

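The dual-specificity MAP kinase phosphatases described here are 9 genes, Dusp1, Dusp2, Dusp3, Dusp4, Dusp5, Dusp6, Dusp7, Dusp10 and Dusp16, of 24134 gene symbols in the expression tables. They were taken by name, whatever their values, and all 9 were found with an OK status in all 4 RNA-seq libraries. Each library was made from macrophages that had been raised from C57BL/6 bone marrow in GM-CSF (10 ng/ml, 6 days) and kept as the adherent fraction. The cells were either wild type (Batf2+/+, WT) or lacked the transcription factor gene Batf2 (Batf2-/-, KO). Per the labels, cultures of both genotypes were given interferon-gamma (10 ng/ml, 4 h) followed by the bacterial cell wall component LPS (100 ng/ml), with harvest 0 h or 3 h later. Genotype and time give 4 groups of 1 library each, and neither the number of animals behind a culture nor the deleted part of Batf2 is given in the sources used here.

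MAP kinases (ERK, JNK and p38) are switched on when an upstream kinase phosphorylates a threonine and a tyrosine in their activation loop. A dual-specificity phosphatase removes both phosphates and so turns the kinase off. In macrophages, signals from Toll-like receptors run through all 3 kinase branches, several of these phosphatases are themselves induced by the kinases they oppose, and Dusp1 is known for limiting cytokine production after LPS. By their known location and substrates the members form 4 groups: the inducible nuclear enzymes Dusp1, Dusp2, Dusp4 and Dusp5, the cytoplasmic ERK phosphatases Dusp6 and Dusp7, the JNK and p38 phosphatases Dusp10 and Dusp16, and the small atypical enzyme Dusp3 (VHR), which lacks the kinase-binding domain of the others.

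What makes the 9 genes a family can be read in the coding sequence of the catalytic loop, shown here because it is the feature all members share. Each line gives 27 bases from the coding strand of the matched GENCODE transcript (GRCm38), 5′ to 3′, with the codons of the catalytic cysteine and of the phosphate-binding arginine in capitals.
Dusp1: catTGCcaggccggcatctccCGGtca
Dusp2: cacTGCcaagctggcatctctCGCtca
Dusp4: cacTGCcaggccggcatctccCGAtca
Dusp5: cacTGCgaagctggggtttccCGGtcg
Dusp6: catTGCttggcaggtatcagcCGCtct
Dusp7: cacTGCctagcaggcatcagcCGTtca
Dusp10: cacTGCcaggccggcgtgtccCGAtcc
Dusp16: cacTGCttagctgggatctctCGCtcc
Dusp3: catTGCcgcgagggctacagcCGCtcc
Every member had this loop once, and all 9 used the codon TGC for the cysteine. Over the 27 bases, pairs of members shared from 13 to 25 identical positions (median 19). The cysteine is codon 258 of 367 in Dusp1, codon 293 of 381 in Dusp6 and codon 124 of 185 in Dusp3, the shortest coding sequence of the 9, against 660 codons in Dusp16, the longest.

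Levels are in FPKM, which divides reads by transcript length and by library size, so that levels can be set side by side between genes. The interval after a value is that library's deposited 95% interval, shifted to sit around the FPKM and scaled with it. It covers counting and read assignment in 1 library; the spread between cultures cannot be measured with 1 library a group. For the members the intervals were as wide as counting 23 reads would give at the least (Dusp2 in WT at 0 h) and 3143 at the most (Dusp3 in KO at 0 h). The size rule used below calls a gene when 3 things hold: a difference of 1 or more in log2(FPKM + 1), 1 FPKM or more in one of the libraries compared (a measured gene), and deposited intervals that lie apart. No test was run and no p-value is given, because every group is a single library.

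The libraries held an estimated 19900000 to 29900000 mapped reads. The targeted gene Batf2 checks the labels: it stood 10.1-fold below WT in the KO library at 0 h, and 23.2-fold below at 3 h (10.1 against 234.3 FPKM). Its signal was not absent in KO. There it was 38.9-fold higher at 3 h than at 0 h (0.259 FPKM), and the 3 h value exceeded that of WT at 0 h (2.63 FPKM). All 9 measured macrophage markers were at 1 FPKM or more in every library, and their summed FPKM at 0 h was 22898 in WT and 24691 in KO, and at 3 h 17294 and 16179, of which Lyz2 alone gave 16015 and 14415. Markers of B, T and NK cells summed to between 1.23 and 2.46 FPKM over 9 genes. Neutrophil markers were present in all libraries, and their sum over 9 genes was 3621 FPKM in WT and 9045 in KO at 0 h, and 5754 and 5466 at 3 h, so that the KO library at 0 h stood highest. Dendritic cell markers summed to 11.6 to 45.1 FPKM over the 4 libraries, with Cd209a at 0 in KO at 3 h, and mast cell and basophil markers to 7.40 to 24.7 FPKM, with Fcer1a at 0 in KO at 0 h. Gbp2, a GTPase gene induced by interferon-gamma, was far lower at 0 h (49.8 FPKM in WT and 31.6 in KO) than at 3 h (2688 and 2236), as was the chemokine gene Cxcl9 (0.624 and 0.124 FPKM, then 1249 and 1058). Whether the 0 h cultures had received the interferon-gamma that the labels give was not tested, and differences between 3 h and 0 h of LPS can therefore not be assigned to LPS alone: an effect of interferon-gamma cannot be told apart from it.

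The first comparison asks how the members differed between 3 h and 0 h of LPS in each genotype. The members moved in opposite directions. Dusp2, Dusp4 and Dusp16 were higher at 3 h in WT and Dusp2 and Dusp16 in KO, whereas Dusp6, Dusp7 and Dusp3 were lower in both. In WT, 3 of 9 members passed the size rule as higher, where 7.56% of 10844 measured genes did, and 3 of 9 as lower, where 23.2% did. In KO, 2 of 9 passed as higher against 7.85% of 10962 measured genes, and 3 of 9 as lower against 28.0%. Over the whole table the differences had a median of -0.54 (WT) and -0.64 (KO) on the log2(FPKM + 1) scale, so that lower calls are to be read against genes that were mostly lower at 3 h. With libraries rescaled by their median ratio, the calls over all genes went from 820 higher and 2514 lower to 1274 and 1056 in WT and from 861 and 3064 to 1404 and 1101 in KO, while the same 6 members stayed called in WT and the same 5 in KO, joined there by Dusp4 (1.38) and Dusp5 (1.09). The median over the members was 0.45 in WT and 0.15 in KO, and 0.80 and 0.68 with rescaled libraries. In whole cultures, fewer cells of a type and less RNA per cell cannot be told apart. Dusp2 met the filter on low values only through the 3 h libraries, in which it was high.

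**Figure D1:**
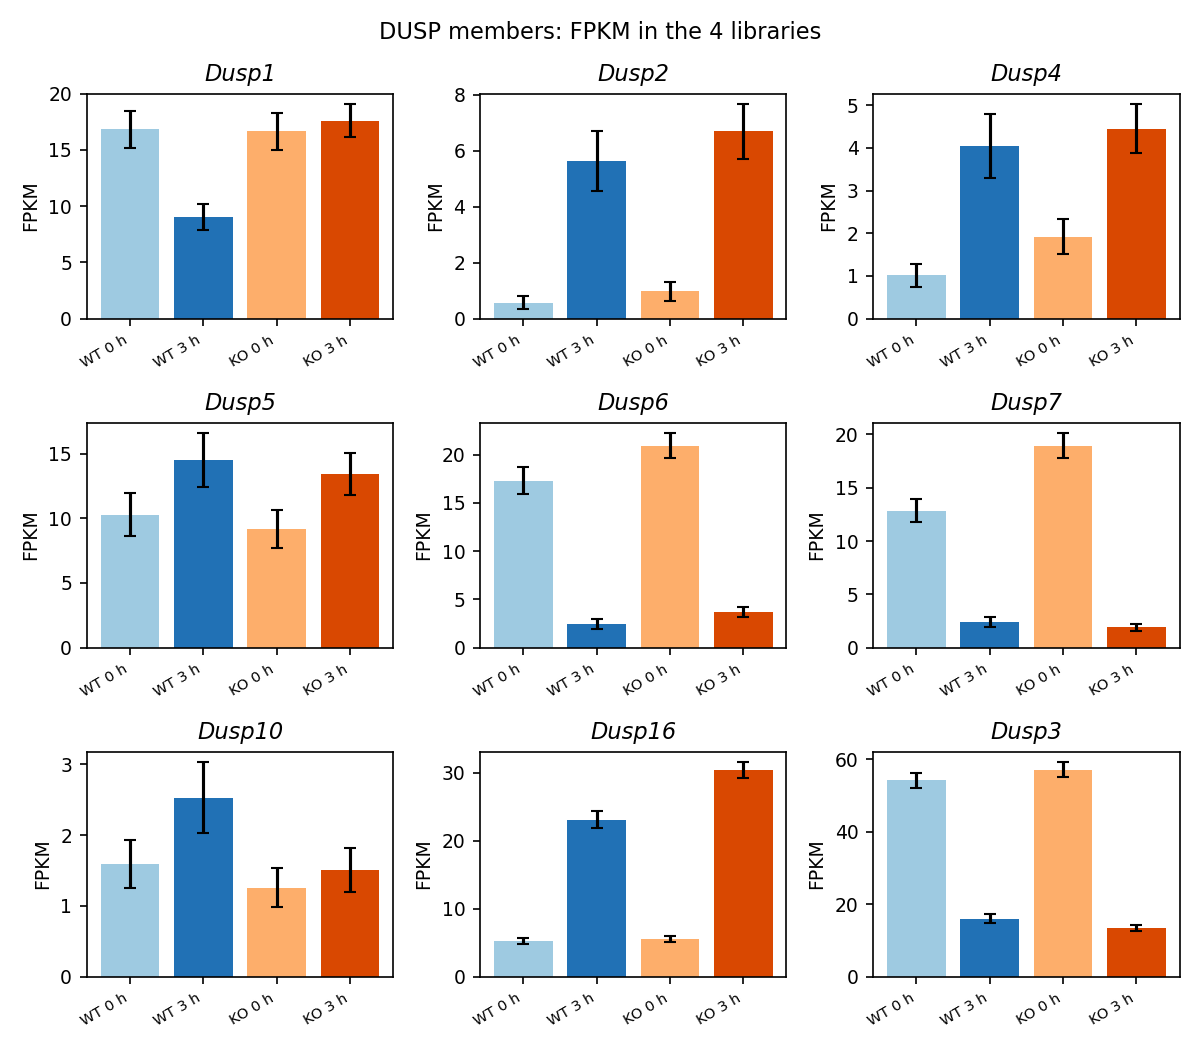
FPKM (vertical axis, linear, from 0) of the 9 members in the 4 libraries, with 1 bar per library and bars for the deposited interval moved onto the FPKM. Dusp2 and Dusp16 stand higher at 3 h in both genotypes, Dusp6, Dusp7 and Dusp3 lower, and Dusp1 is low in WT at 3 h alone (9.04 FPKM against 16.6 to 17.6).

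Among the nuclear enzymes, Dusp2 (PAC1), which acts on ERK and p38 and is known from activated immune cells, showed the largest increase between the times. Dusp2 lies on chromosome 2 at 127336159 to 127338377 (GRCm38, forward strand) and its transcript has 4 exons. It had 0.569 FPKM (interval 0.332 to 0.806) in WT at 0 h, 5.64 (4.56 to 6.72) in WT at 3 h, 0.974 (0.635 to 1.31) in KO at 0 h and 6.69 (5.72 to 7.66) in KO at 3 h. Both 3 h libraries lay above both 0 h libraries with no overlap of the intervals. The level was 9.91-fold higher at 3 h in WT (interval 6.27 to 15.7) and 6.87-fold higher in KO (4.71 to 10.0), or 2.08 and 1.96 on the log2(FPKM + 1) scale. With a pseudocount of 5 the differences were 0.93 and 0.97, under the size rule.

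Dusp4 (MKP-2), a nuclear phosphatase of ERK and JNK, was the weakest of the higher calls. It lies on chromosome 8 at 34807610 to 34819894 (forward strand, 4 exons). Its levels were 1.02 FPKM (0.746 to 1.29) in WT at 0 h, 4.05 (3.29 to 4.80) in WT at 3 h, 1.92 (1.52 to 2.32) in KO at 0 h and 4.45 (3.88 to 5.02) in KO at 3 h. The intervals of the 2 genotypes overlapped at 3 h and lay apart at 0 h, where KO was higher. It was 3.98-fold higher at 3 h in WT (2.88 to 5.51) and passed. In KO it was 2.32-fold higher (1.81 to 2.97), a log2(FPKM + 1) difference of 0.90, and did not pass, but it did at 1.17 with a pseudocount of 0.1.

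Dusp5, a nuclear phosphatase that binds ERK and holds it in the nucleus, had 10.3 FPKM (8.61 to 11.9) in WT at 0 h, 14.5 (12.4 to 16.6) in WT at 3 h, 9.18 (7.72 to 10.6) in KO at 0 h and 13.4 (11.8 to 15.0) in KO at 3 h. It lies on chromosome 19 at 53529318 to 53541322 (forward strand, 4 exons). Within each genotype the 3 h interval lay above the 0 h interval, by ratios of 1.41 in WT and 1.46 in KO, and neither difference passed the size rule. In both 3 h libraries the FPKM of Dusp5 lay just above its own deposited upper limit.

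Dusp1 (MKP-1), the best known feedback phosphatase of p38 and JNK in macrophages, did not stand higher at 3 h in WT. The gene lies on chromosome 17 at 26505591 to 26508472 (reverse strand, 4 exons). It had 16.8 FPKM (15.2 to 18.5) in WT at 0 h, 9.04 (7.86 to 10.2) in WT at 3 h, 16.6 (15.0 to 18.3) in KO at 0 h and 17.6 (16.1 to 19.1) in KO at 3 h. The WT library at 3 h was the low one, and the other 3 had overlapping intervals. In WT, Dusp1 was 1.86-fold lower at 3 h (1.58 to 2.19), a difference of -0.83, which is under the size rule. In KO the ratio of 3 h to 0 h was 1.06 (0.928 to 1.20), a difference of 0.08. With rescaled libraries the differences were -0.33 in WT and 0.68 in KO, so that the size of the WT decrease and the near-equal levels in KO depend on the scaling, while neither value passes the size rule.

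The 2 cytoplasmic ERK phosphatases were both lower at 3 h. Dusp6 (MKP-3), whose transcription is known to follow ERK activity, lies on chromosome 10 at 99263231 to 99267489 (forward strand, 3 exons). Its level was 17.3 FPKM (15.9 to 18.7) in WT and 20.9 (19.6 to 22.2) in KO at 0 h, and 2.45 (1.96 to 2.93) and 3.68 (3.15 to 4.22) at 3 h. The 2 times did not overlap in either genotype. Dusp6 was 7.08-fold lower at 3 h in WT (5.71 to 8.77) and 5.68-fold lower in KO (4.85 to 6.65). In WT it was among the lowest 1.46% of all measured genes by the log2(FPKM + 1) difference, and in KO among the lowest 2.33%.

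Dusp7 (MKP-X), the closest relative of Dusp6 by substrate and location, lies on chromosome 9 at 106368632 to 106375723 (forward strand, 3 exons). It had 12.8 FPKM (11.8 to 13.9) in WT at 0 h, 2.40 (1.97 to 2.84) in WT at 3 h, 18.9 (17.8 to 20.1) in KO at 0 h and 1.90 (1.58 to 2.23) in KO at 3 h. KO was the higher of the genotypes at 0 h and the lower at 3 h, the latter with overlapping intervals. Dusp7 was 5.34-fold lower at 3 h in WT (4.37 to 6.53) and 9.97-fold lower in KO (8.31 to 11.9), the largest decrease of the 9 members in KO.

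The 2 phosphatases that prefer JNK and p38 differed in level and in pattern. Dusp16 (MKP-7), a JNK phosphatase, lies on chromosome 6 at 134715468 to 134792628 (reverse strand) and was listed as 2 transcripts of 7 exons each. The shorter one was listed at 0 in all 4 libraries, so that the values are those of the longer one. Dusp16 had 5.22 FPKM (4.76 to 5.68) in WT at 0 h, 23.1 (21.9 to 24.3) in WT at 3 h, 5.51 (5.06 to 5.96) in KO at 0 h and 30.4 (29.3 to 31.5) in KO at 3 h. The 0 h libraries overlapped, and both 3 h libraries were far above them. It was 4.43-fold higher at 3 h in WT (4.00 to 4.90) and 5.52-fold higher in KO (5.05 to 6.04), with differences of 1.95 and 2.27.

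Dusp10 (MKP-5), which acts on JNK and p38, stayed low. It lies on chromosome 1 at 184034461 to 184075636 (forward strand, 4 exons). Its levels were 1.59 FPKM (1.25 to 1.93) in WT at 0 h, 2.53 (2.03 to 3.03) in WT at 3 h, 1.26 (0.980 to 1.54) in KO at 0 h and 1.5 (1.19 to 1.82) in KO at 3 h. WT at 3 h was the high library, and neither genotype passed the size rule between the times (differences of 0.45 and 0.15).

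Dusp3, a small enzyme that acts on ERK and JNK as well as on other phosphoproteins, was the most abundant member at 0 h. It lies on chromosome 11 at 101971144 to 101984791 (reverse strand, 3 exons). It had 54.1 FPKM (52.1 to 56.1) in WT at 0 h, 16.0 (14.8 to 17.2) in WT at 3 h, 57.1 (55.1 to 59.1) in KO at 0 h and 13.4 (12.6 to 14.2) in KO at 3 h. Both 3 h libraries were far below both 0 h libraries. The level was 3.38-fold lower at 3 h in WT (3.11 to 3.68) and 4.27-fold lower in KO (3.97 to 4.58).

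**Figure D2:**
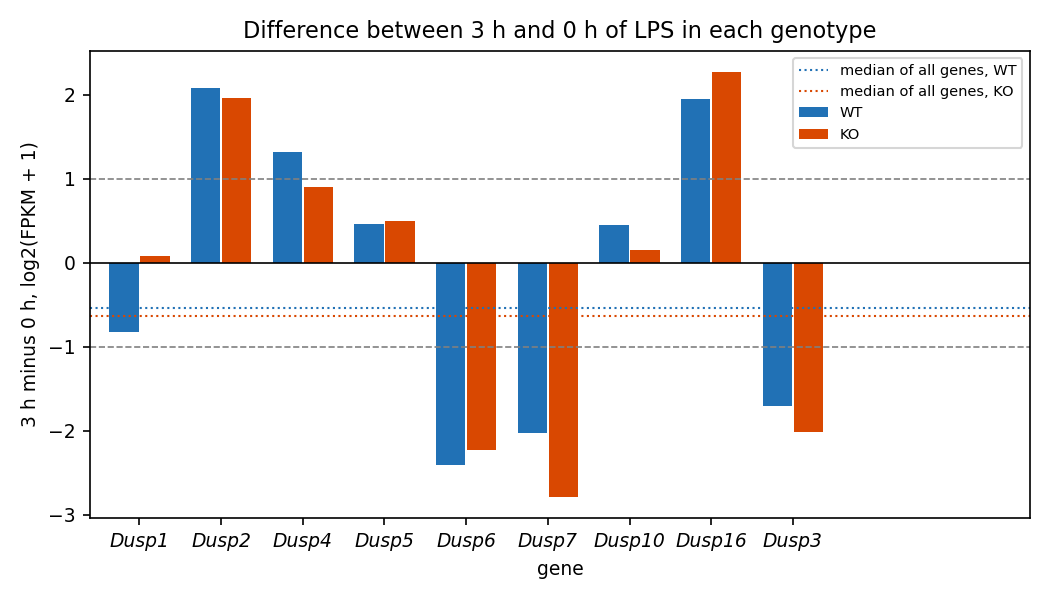
Difference between 3 h and 0 h of LPS in log2(FPKM + 1) (vertical axis) for each member (horizontal axis) in WT and KO. Dashed lines mark differences of 1 and -1, the size the rule asks for, and dotted lines the median of all measured genes (-0.54 in WT, -0.64 in KO). Bars point the same way in both genotypes for 8 members and opposite ways for Dusp1.

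The order of the members by FPKM was thus rearranged between the times. At 0 h Dusp3 led in both genotypes and made up 45.2% (WT) and 43.1% (KO) of the FPKM summed over the 9 members. Dusp6, Dusp1, Dusp7 and Dusp5 followed in WT, and Dusp6, Dusp7, Dusp1 and Dusp5 in KO. Dusp6 and Dusp1 had overlapping intervals in WT, as did Dusp7 and Dusp5, and in KO Dusp6 overlapped Dusp7 and Dusp7 overlapped Dusp1. Dusp16 was in the 6th place, and Dusp10, Dusp4 and Dusp2 stood at the low end of both libraries, with overlap between neighbours. At 3 h Dusp16 led, with 29.0% of the sum in WT and 32.7% in KO, and its interval lay apart from that of the next member in both. Dusp3 and Dusp5, next in WT, overlapped each other, and in KO Dusp1 was second, apart from Dusp5. Dusp10, Dusp6 and Dusp7 were the lowest of WT, each overlapping its neighbour, and Dusp7 and Dusp10 the lowest of KO. The sum over the members was 119.8 and 132.5 FPKM at 0 h and 79.7 and 93.0 FPKM at 3 h in WT and KO.

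The second comparison sets KO against WT at each time. No member passed the size rule between the genotypes. At 0 h, 8 of the 9 members were measured, Dusp2 being under 1 FPKM in both libraries, and 0 of 8 passed, where 1.72% of 10845 measured genes did. The deposited intervals lay apart for 3 of 8, all higher in KO, where 19.1% of measured genes had intervals apart in either direction. At 3 h, 0 of 9 passed, where 1.46% of 9808 measured genes did, and intervals lay apart for 5 of 9 against 25.5%. The median difference over the members was 0.07 at 0 h and 0.11 at 3 h, beside -0.00 and -0.07 for all measured genes.

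At 3 h Dusp1 was the member nearest to the size rule. Its 17.6 FPKM in KO and 9.04 in WT gave a ratio of 1.95 (1.67 to 2.27) and a log2(FPKM + 1) difference of 0.89, and 244 of 9808 measured genes (2.49%) differed by as much or more in either direction. At 0 h the ratio was 0.988 (0.860 to 1.14). Dusp16 was 1.32-fold higher in KO at 3 h (1.24 to 1.40) and Dusp6 1.51-fold higher (1.18 to 1.93), both with intervals apart. Lower in KO at 3 h with intervals apart were Dusp10, by 1.68-fold (1.26 to 2.24), and Dusp3, by 1.19-fold (1.08 to 1.32). The ratios of Dusp2 (1.19), Dusp4 (1.10), Dusp5 (0.925) and Dusp7 (0.791) had overlapping intervals. Markers differed between the same 3 h libraries too. Of 9 macrophage markers 6 were higher in KO and 7 had intervals apart, with Cd14 2.12-fold higher and past the size rule and Adgre1 1.87-fold higher. Of 5 measured dendritic cell markers 2 were higher in KO and 3 lower. Clec9a was 4.47-fold lower and past the rule, and Ccr7 1.93-fold higher and under it. With rescaled libraries 1 dendritic cell marker passed as higher and 1 as lower. Of 8 listed mast cell and basophil markers 5 were measured, all higher in KO, and 1 passed, Gata2, at 6.63-fold (2.24 against 0.337 FPKM). Gata2 and Mcpt8 met the filter on low values only through KO, in which they were higher. Under 1 FPKM in both libraries, Cpa3 (0.421 against 0.933) and Ms4a2 (0.063 against 0.172) were lower in KO, and Fcer1a was higher. All 5 measured stromal markers were higher in KO too, 4 of them with intervals apart and none past the rule (1 with rescaled libraries). The part of these cells in the differences of Dusp1 and the other members was not tested.

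At 0 h the members with intervals apart were Dusp7, 1.48-fold higher in KO (1.33 to 1.64), Dusp4, 1.89-fold higher (1.35 to 2.65), and Dusp6, 1.21-fold higher (1.09 to 1.34). Of these only Dusp6 was also higher with intervals apart at 3 h. Dusp16 (1.06) and Dusp3 (1.06) were close to equal, and Dusp10 (0.793) and Dusp5 (0.894) were lower with overlap. Neutrophil markers differed between the same libraries, with all 9 measured genes higher in KO at 0 h, 5 of them past the size rule and a median difference of 1.24, against -0.03 at 3 h. Stromal markers summed to 75.2 FPKM in KO and 33.4 in WT at 0 h, and to 54.5 and 34.5 at 3 h. All 6 measured stromal markers were higher in KO at 0 h with intervals apart. Of these 2 passed the size rule, Col3a1 (6.13-fold) and Sparc (2.92-fold). Of 4 measured dendritic cell markers 3 were lower in KO at 0 h and 1 higher, with Cd209a 3.04-fold lower and past the rule. Of 8 listed mast cell and basophil markers 6 were measured, all higher in KO at 0 h, with Hdc 3.07-fold higher and past the rule. Cpa3 and Kit met the filter on low values only through KO, and Ms4a2 and Fcer1a, under 1 FPKM in both libraries, were lower in KO. The part of these cells in the differences of Dusp4, Dusp6 and Dusp7 was not tested.

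**Figure D3:**
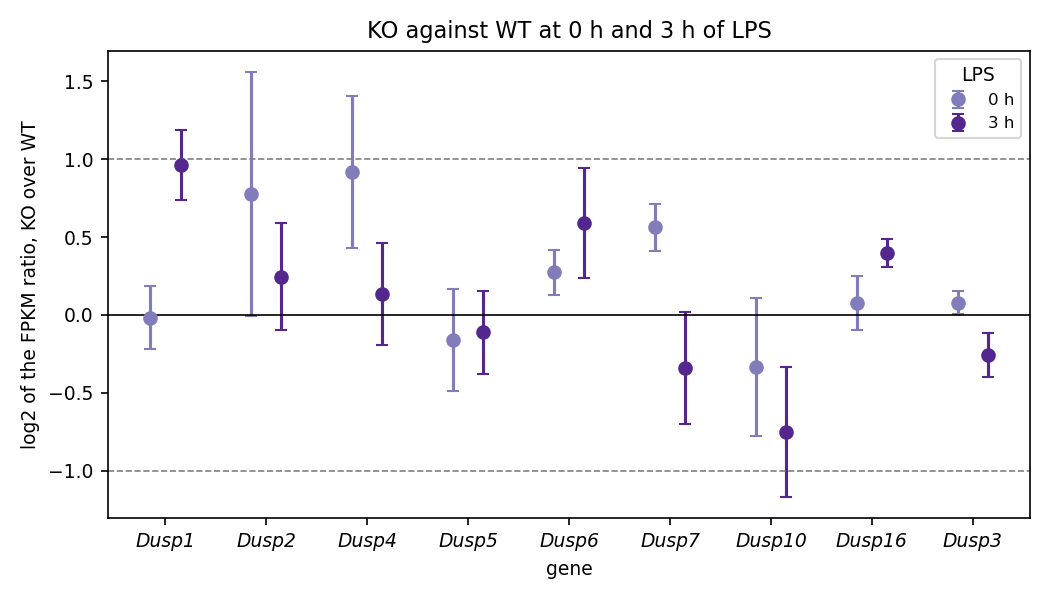
Ratio of FPKM in KO to FPKM in WT on a log2 axis (vertical) for each member (horizontal), at 0 h and 3 h of LPS. Points are ratios of 1 library to 1 library, bars are the intervals propagated from the deposited ones, and dashed lines mark 2-fold. Dusp1 at 3 h stands just under 2-fold at 1.95, while at 0 h its ratio is 0.988.

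The difference between the genotypes in the response from 0 h to 3 h was computed as the KO difference minus the WT difference on the log2(FPKM + 1) scale. No member reached 1 with an interval that excluded 0, which 2.47% of 11127 measured genes did. Dusp1 came nearest on the positive side, at 0.90 (interval 0.63 to 1.18), from -0.83 in WT and 0.08 in KO, and 349 of the measured genes (3.14%) were as far from 0. With the libraries rescaled to a common median ratio the value was 1.01 and passed. Dusp7 came nearest on the negative side, at -0.76 (-1.04 to -0.48). Dusp16 (0.32), Dusp3 (-0.32) and Dusp4 (-0.42) had smaller values with intervals that excluded 0, and the intervals of Dusp2, Dusp5, Dusp6 and Dusp10 included it. The comparisons share libraries, and the low value of Dusp1 in WT at 3 h enters its difference between times, between genotypes and between responses. Neutrophil markers also differed in this contrast, with all 9 genes negative, 7 of them called, at a median of -1.29. All 6 measured stromal markers were negative (median -0.46, none past the rule). Of 9 macrophage markers 1 passed, Cd14, a co-receptor for LPS, at 1.20. Of 6 measured mast cell and basophil markers 5 were negative, none of them past the rule. The 1 positive gene, Gata2, passed at 1.05, and the median over the 6 was -0.53. The part of these cells in the member values was not tested.

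The sequences just before the gene starts were read next, because Dusp1 and its relatives are known as genes of rapid induction. Promoters of 8 members were found in the RefSeq table (GRCm38.p6), and Dusp4 was not matched. Shown are the 250 bases before the annotated start, 5′ to 3′ on the gene's strand. Dusp1 (chr17:26508473-26508722, reverse strand) is the member with the largest genotype difference at 3 h. Dusp5 (chr19:53528895-53529144, forward strand) is the one with 2 adjoining matches to the CArG box. Dusp2 (chr2:127335909-127336158, forward strand) and Dusp16 (chr6:134792629-134792878, reverse strand) are the 2 with the nearest profiles on the log2(FPKM + 1) scale, a nearness that depends on the pseudocount. Capitals mark matches to the cAMP response element, its shorter core TGACG, the CArG box and the E-box. Positions count back from the RefSeq start. For Dusp5 this start lies upstream of that of the deposited transcript (53529318), and for Dusp10, not shown, it does so too.
Dusp1: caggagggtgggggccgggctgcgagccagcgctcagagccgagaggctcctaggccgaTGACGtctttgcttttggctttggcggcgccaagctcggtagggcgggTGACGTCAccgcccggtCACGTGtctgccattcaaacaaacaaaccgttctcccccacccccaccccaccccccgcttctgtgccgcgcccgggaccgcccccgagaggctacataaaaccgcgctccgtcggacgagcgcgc
Dusp5: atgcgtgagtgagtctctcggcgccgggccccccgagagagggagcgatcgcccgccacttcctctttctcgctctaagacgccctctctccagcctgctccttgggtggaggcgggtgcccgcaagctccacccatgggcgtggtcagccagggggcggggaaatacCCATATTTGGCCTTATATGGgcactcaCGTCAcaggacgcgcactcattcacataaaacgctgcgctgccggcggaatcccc
Dusp2: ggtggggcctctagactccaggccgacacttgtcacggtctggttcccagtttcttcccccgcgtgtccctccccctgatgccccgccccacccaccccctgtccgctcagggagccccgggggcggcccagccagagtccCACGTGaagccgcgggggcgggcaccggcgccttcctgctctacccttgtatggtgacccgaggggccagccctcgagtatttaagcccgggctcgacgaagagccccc
Dusp16: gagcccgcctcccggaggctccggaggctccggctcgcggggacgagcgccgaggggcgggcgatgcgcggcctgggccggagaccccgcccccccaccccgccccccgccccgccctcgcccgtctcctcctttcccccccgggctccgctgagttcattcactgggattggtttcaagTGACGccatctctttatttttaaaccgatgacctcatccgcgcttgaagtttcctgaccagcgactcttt
The full cAMP response element TGACGTCA, searched on both strands, was found in Dusp1 alone of the 8, from 143 to 136 bases before the start, and in 1.55% of 32851 promoters. The core TGACG, which the full element contains on both strands, occurred in Dusp1, Dusp5 and Dusp16 and in 17.8% of all promoters. The CArG box, the site class of serum response factor, was found 2 times in Dusp5, from 82 to 73 and from 72 to 63 bases before the start, and in 1.47% of all promoters. The E-box CACGTG was found in Dusp1 (126 to 121 bases before the start) and Dusp2 (109 to 104) and in 6.02% of all. The AP-1 site TGAGTCA (4.46% of all promoters), the gamma-activated sequence TTCNNNGAA (7.02%), the interferon-stimulated response core (2.98%), the TATA box letters TATAAA (12.4%) and the NF-kappaB consensus (7.25%), each searched on both strands, had no match in these windows of the 8 members. The 8 windows held 16 to 34 CpG dinucleotides, against a median of 6 over all promoters. A match or its absence describes these letters in this window only.

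AUUUA pentamers in the 3′ untranslated region, written ATTTA in the DNA letters searched, are known from messages of short life. Of the members, Dusp1, Dusp2 and Dusp3 had 4 each, Dusp10 and Dusp16 had 3, Dusp4 had 2, Dusp5 and Dusp6 had 1 and Dusp7 had 0, beside a median of 1 over 19390 genes. Per 1000 bases the densest were Dusp2 (6.88) and Dusp1 (5.80), against a median of 1.09. The 3 members lower at 3 h in both genotypes, Dusp3, Dusp6 and Dusp7, had 1.11, 0.84 and 0.00 per 1000 bases.

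The profiles of the members over the 4 libraries were compared by the Euclidean distance between their log2(FPKM + 1) values, each centred on its own mean, among 8122 genes that reached 5 FPKM and were at 0 nowhere. Among members of that level, Dusp2 and Dusp16 were the closest pair (distance 0.24), followed by Dusp6 and Dusp7 (0.52) and Dusp7 and Dusp3 (0.63), and Dusp7 and Dusp16 were the farthest apart (4.55). Dusp2 was under 1 FPKM at 0 h, so its distances depend on the 1 added before the logarithm. With a pseudocount of 0.1 its differences between the times were 3.10 in WT and 2.66 in KO, against 2.12 and 2.44 for Dusp16. The genes most like Dusp1 were Osm, which encodes the cytokine oncostatin M (0.23; 5.82 FPKM at 0 h and 3.78 at 3 h in WT, and 6.67 and 6.75 in KO), the transcription factor gene Cebpb (0.25) and the small nucleolar RNA Snora81 (0.25), and Osm was the only gene within a distance of 0.25. Nearest to Dusp6 were Ndst1 (0.17), Mgll (0.22) and Cdk20 (0.24), and nearest to Dusp7 were Srm (0.24), C3ar1 (0.24) and Tpcn2 (0.27). Nearest to Dusp2, with the same limit, were Cers6, Plek and the death receptor gene Fas (0.08, 0.08 and 0.09). Nearest to Dusp16 were Cpeb4, Slfn4 and Tma16 (0.12, 0.13 and 0.13). Dusp5 (nearest Mcur1, Pacs1 and Isoc2a) and Dusp3 (nearest Tpra1, Nat10 and Mindy1) followed common profiles, with 272 and 197 genes within 0.25. With 4 points a profile is a description and no more.

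Other genes of the MAP kinase pathways were read from lists. Among other phosphatases of the family, Dusp8 and Dusp9 stayed under 1 FPKM in all libraries. Of the 15 listed atypical enzymes, 8 were measured between the times in WT and 9 in KO, with 3 and 4 lower past the size rule and none higher, where 23.2% (WT) and 28.0% (KO) of all measured genes were lower and 7.56% and 7.85% higher. With rescaled libraries 1 was lower in each genotype and 1 higher in KO. Over all genes, 1274 of 10739 were then higher and 1056 lower in WT, and 1404 and 1101 of 10797 in KO. Dusp12, Dusp18 and Dusp22 were lower in both, Dusp23 passed in KO and not in WT (15.7 FPKM at 0 h and 4.26 at 3 h, against 13.7 and 7.53, with an uncalled difference between responses of -0.88), and Dusp11 was the most abundant at 3 h (13.5 and 13.3 FPKM). Of 6 measured phosphatases of other families that act on MAP kinases, 2 were lower in WT and 1 in KO (with rescaled libraries 1 lower and 1 higher in each). Ptpn7, a tyrosine phosphatase of ERK and p38, had 56.1 FPKM in WT and 51.4 in KO at 0 h and 8.15 and 7.38 at 3 h. It was 6.88-fold and 6.96-fold lower, next to 7.08-fold and 5.68-fold for Dusp6. Ppm1d was lower past the rule in WT, and Ppp2ca, the catalytic subunit of PP2A and the most abundant of this list, had 98.8 to 104 FPKM in the 4 libraries.

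The kinases of the cascade are read against the same shares of all measured genes, 7.56% higher and 23.2% lower in WT and 7.85% and 28.0% in KO. These shares hold without rescaling. Counts with rescaled libraries are read against 1274 higher and 1056 lower of 10739 genes in WT, and 1404 and 1101 of 10797 in KO. Of 9 measured MAP kinases, 1 was lower past the size rule in each genotype, Mapk7 (ERK5), and none was higher, with medians of -0.47 and -0.66 (0.06 and -0.02 with rescaled libraries). Mapk3 (ERK1) was the most abundant, at 162.5 FPKM in WT and 146.8 in KO at 0 h and 91.6 and 81.9 at 3 h, and with rescaled libraries Mapk7 was not called and 2 MAP kinases were higher in WT. Of 7 MAP kinase kinases, 3 were lower in WT (Map2k3, Map2k6 and Map2k7) and 1 in KO (Map2k5), and with rescaled libraries none was lower and 1 was higher in each genotype. Of 15 MAP3 and RAF kinases, 4 were lower in each genotype (3 with rescaled libraries), and 1 was higher in WT and 2 in KO (3 and 3 with rescaled libraries). Map3k1, Map3k3, Map3k4 and Map3k20 were the lower ones, by 2.11-fold (Map3k3 in KO) to 8.11-fold (Map3k4 in KO). Map3k8 (Tpl2), the kinase that links Toll-like receptors to ERK, was 5.38-fold higher at 3 h in WT and 5.49-fold in KO (23.0 and 20.6 FPKM). Map3k5 (ASK1), upstream of JNK and p38, passed as higher in KO, at 3.24 FPKM at 0 h and 11.8 at 3 h, with 3.53 and 5.89 in WT and an uncalled difference between responses of 0.99. Of 10 kinases that MAP kinases activate, 1 was higher and 4 lower in each genotype (1 and 1 with rescaled libraries). Mapkapk2, the effector of p38, was the higher one (2.78-fold in WT and 2.31-fold in KO), and Mknk2 the lowest by difference (4.20-fold and 5.12-fold lower), beside lower calls of Mknk1, Rps6ka1 and Rps6ka3 in both.

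Feedback inhibitors and response genes of ERK, the branch that Dusp6 and Dusp7 act on, had calls in both directions, to be read against the same shares of all measured genes. Counts with rescaled libraries are again to be read against the rescaled calls over all genes. Of 7 measured feedback inhibitors, 2 were lower past the size rule in each genotype (1 with rescaled libraries) and 1 was higher. Spred2 and Sh2b3 were lower (Spred2 9.86 to 2.48 FPKM in WT and 11.3 to 2.17 in KO) and Spred1 higher (21.0 to 51.0 and 22.8 to 51.8). Of 17 measured ERK response genes, 3 were higher and 4 lower in WT, and 1 was higher and 7 lower in KO, with medians of -0.68 and -0.62, beside -0.54 and -0.64 for all genes. With rescaled libraries 4 were higher and 3 lower in WT, and 5 and 5 in KO. Myc was 9.48-fold lower at 3 h in WT and 9.90-fold in KO, the ETS factor gene Etv5 8.65-fold and 16.4-fold, Egr2 3.91-fold and 4.93-fold, and the cyclin D1 gene Ccnd1 2.19-fold and 3.40-fold. Junb was higher (80.0 to 264 FPKM in WT and 78.6 to 282 in KO). Between the genotypes, 1 of the genes in these pathway lists passed the size rule, where 1.72% (0 h) and 1.46% (3 h) of all measured genes did. Fos, an immediate early gene of ERK, was lower in KO at 3 h (2.50 against 6.27 FPKM). It was also the only one past the rule for the difference between responses, at -1.39, where 2.47% of all measured genes passed. With rescaled libraries 1 MAP3 kinase passed as well, beside 125 higher and 147 lower calls over 10982 measured genes. Of 10 regulators of the CREB and ATF1 family, whose site is the cAMP response element, 1 was higher and 2 lower in both genotypes (3 and 1 with rescaled libraries). Crem was the higher one (5.10 to 15.1 FPKM in WT and 4.74 to 13.6 in KO), Crtc1 and Crtc3 were lower, and Atf4 was the most abundant, at 102 to 146 FPKM.

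**Figure D4:**
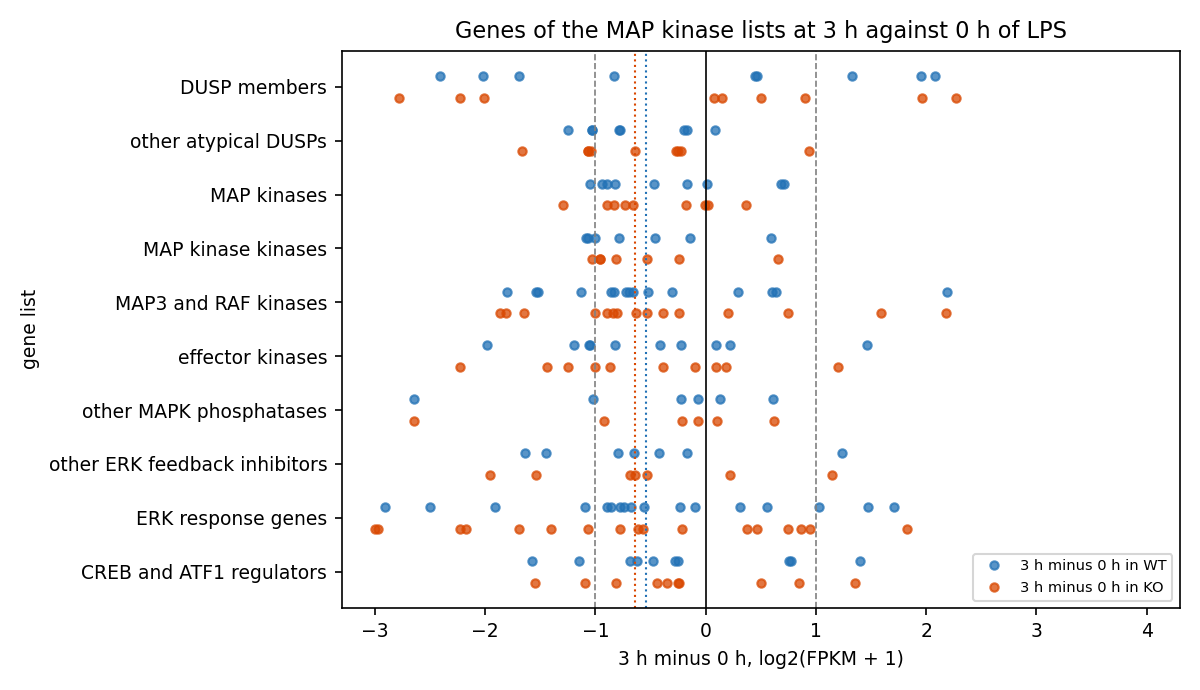
Difference between 3 h and 0 h of LPS in log2(FPKM + 1) (horizontal axis) for genes of each list (vertical axis) that reached 1 FPKM in either library compared, in WT (blue) and KO (orange). Dashed lines mark 1 and -1 and dotted lines the medians of all measured genes. The DUSP members reach from -2.78 to 2.27, whereas no MAP kinase lies beyond -1.29 or 0.71.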

How the data were processed

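The authors deposited FPKM for 4 RNA-seq libraries, giving limits and a quality status per RefSeq transcript. Per the submitters' processing notes, TopHat2, Bowtie, SAMtools and Cufflinks were used with mm9; no version is given there. Libraries were strand-specific single reads, per the labels' protocols. The deposited loci fit GRCm38 instead: 96.5% of 32832 lay within 1000 bases of the gene of their name, so coordinates are given as GRCm38, with 1 added to starts.

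Of 33841 entries, 33433 were named from RefSeq, 191 from GENCODE, 39 by position, and 178 kept their accession. FPKM and limits were summed per symbol. Differences were taken on log2(FPKM + 1) without rescaling, over all genes. Depth was estimated from entries whose upper limit marks a single read. Python 3.11.15, pandas 2.3.3 and numpy 2.4.6 were used. The size rule was checked on simulated data with counting noise alone, which cannot show how it behaves under spread between cultures. Alternatives were pseudocounts of 0.1 and 5, no filter or a filter of 5 FPKM, rescaling by the median ratio and the highest entry per symbol. All 9 members were named whatever their values. In the other lists, members past the size rule (up to 6, by size of difference) and the most abundant were to be named, which for marker lists was done only for those beside a member's result, and 1 gene is not reported here, and for members at 5 FPKM or more the 3 genes nearest in profile. Members, lists and rules were chosen with earlier results of these data known. Gbp2 and Cxcl9 were chosen after their values were seen. No protein sequences were used here.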

Additional observations from a re-analysis of the deposited data

Results flagged for a closer look

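Dusp1 was the 1 member whose libraries moved in opposite directions between 0 h and 3 h in the 2 genotypes. It differed by -0.83 on the log2(FPKM + 1) scale in WT and by 0.08 in KO, so that KO minus WT was 0.90. With libraries rescaled by their median ratio the differences were -0.33 in WT and 0.68 in KO. Without rescaling, the intervals of the 2 times overlapped in KO. This difference between the genotypes was not tested, since each group is 1 library.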

How the results depend on the processing

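Over 45 member differences under 6 alternatives each, 260 of 270 values kept both direction and side of the size rule, and no called difference changed sign. This count includes alternatives that could not move a member. Dropping the filter changes no difference, and the highest entry per symbol equals the sum for every member. A filter of 5 FPKM can end a call but cannot change a difference. The pseudocounts and the rescaling are the alternatives that can move the values. With a pseudocount of 5 the calls of Dusp2 ended in both genotypes (0.93 in WT, 0.97 in KO), as did that of Dusp4 in WT (0.59). A filter of 5 FPKM removed Dusp4 in WT, since its highest level there was under it. Dusp4 in KO passed with a pseudocount of 0.1 (1.17) and with rescaled libraries (1.38), and Dusp5 in KO with rescaled libraries (1.09). For the difference between responses, rescaling brought 1 member past the rule in place of 0, Dusp1 at 1.01, and the uncalled value of Dusp2 turned to 0.01 with rescaling and to 0.03 with a pseudocount of 5. Called members stayed between 4 and 6 in WT and between 4 and 7 in KO. Rescaling moved the median of all genes between the times to -0.07 (WT) and -0.08 (KO). Of all called genes 24.6% were higher in WT and 21.9% in KO, and 54.7% and 56.0% once rescaled. Dusp2 in WT at 0 h, with an interval as wide as that of 23 reads, is the value most limited by depth. No paired analysis was possible because every group holds 1 library.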
